A study of Mus musculus with 6 samples.

Results

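Wfikkn2 and 9 other genes of the growth and differentiation factor (GDF) and activin pathway were followed in whole lateral ventricle choroid plexus of aged and young mice. The other genes were its paralog Wfikkn1, the ligand genes Gdf11, Mstn, Inhba and Inhbb, the secreted binder genes Fst and Fstl3, and the receptor genes Acvr2a and Acvr2b. A member was each probe set that the platform annotation gave to 1 of these 10 symbols alone. This gave 15 of the 45101 probe sets of the array, for 9 of the 10 genes, since no probe set was named for Mstn alone. A probe set shared by Orc4 and Acvr2a was not used. The set was selected on the difference of Wfikkn2 between ages in these arrays, and the other genes were added because they belong to its pathway. The aged mice were 18 months old and the young mice 2 months old. All 6 were male CD1 mice, an outbred stock, with 3 arrays of each age and both lateral ventricle plexuses of 1 mouse on each array. No mutation or treatment was given for either age.

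The GDF and activin branch of the TGF-beta superfamily signals through dimeric ligands that bind type II receptor kinases, which then engage type I receptors, and these phosphorylate Smad2 and Smad3. Secreted proteins hold the ligands back outside the cell. WFIKKN2 and WFIKKN1, also called GDF-associated serum proteins, bind myostatin and GDF11, while follistatin and its relative FSTL3 bind activins as well as these GDFs. The choroid plexus makes cerebrospinal fluid and releases proteins into it, so that transcripts for secreted binders and ligands are of interest in this tissue.

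Values are log2 of the deposited normalized intensities. Levels of different probe sets cannot be set against each other, so that each probe set is compared only between mice. A probe set with a mean over the 6 arrays of at least 4.92, the 40th percentile of all probe sets other than controls, counted as bright enough to test. As a gauge of background, the highest mean among 27 control probe sets for bacterial transcripts was 4.51. Of the 15 member probe sets 9 passed the filter, and 6 of the 10 genes were tested: Wfikkn2, Wfikkn1, Gdf11, Fstl3, Acvr2a and Acvr2b. Inhba, Inhbb and Fst had a probe set but stayed below the filter.

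Wfikkn2 was higher in every 18-month plexus than in any 2-month plexus. Its only probe set, 1428811_at, had log2 intensities of 9.80, 9.61 and 9.89 in the 3 aged plexuses, against 7.86, 7.52 and 6.77 in the 3 young ones. On the linear scale these are intensities of 890.9, 781.4 and 951.7 in aged mice, against 232.9, 183.3 and 109 in young mice. The aged mice lay close together and the young mice were spread out, with the young replicate 3 the lowest of all. The means were 9.77 ± 0.14 at 18 months and 7.38 ± 0.56 at 2 months (SD, n = 3 each). The log2 difference was 2.38 (SE 0.30, 95% interval 1.67 to 3.10), or 5.22-fold with an interval of 3.18 to 8.57.

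This difference was known when Wfikkn2 was chosen for description, so that it is given as a measurement without a test. Among the 12681 genes tested it was the 8th highest difference. Leaving out 1 mouse at a time gave differences between 2.08 and 2.62, the lowest without the 2-month replicate 3 and the highest without the 2-month replicate 1. No second probe set for Wfikkn2 alone was on the array, so that the value rests on 1 set of probes.

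**Figure D1:**
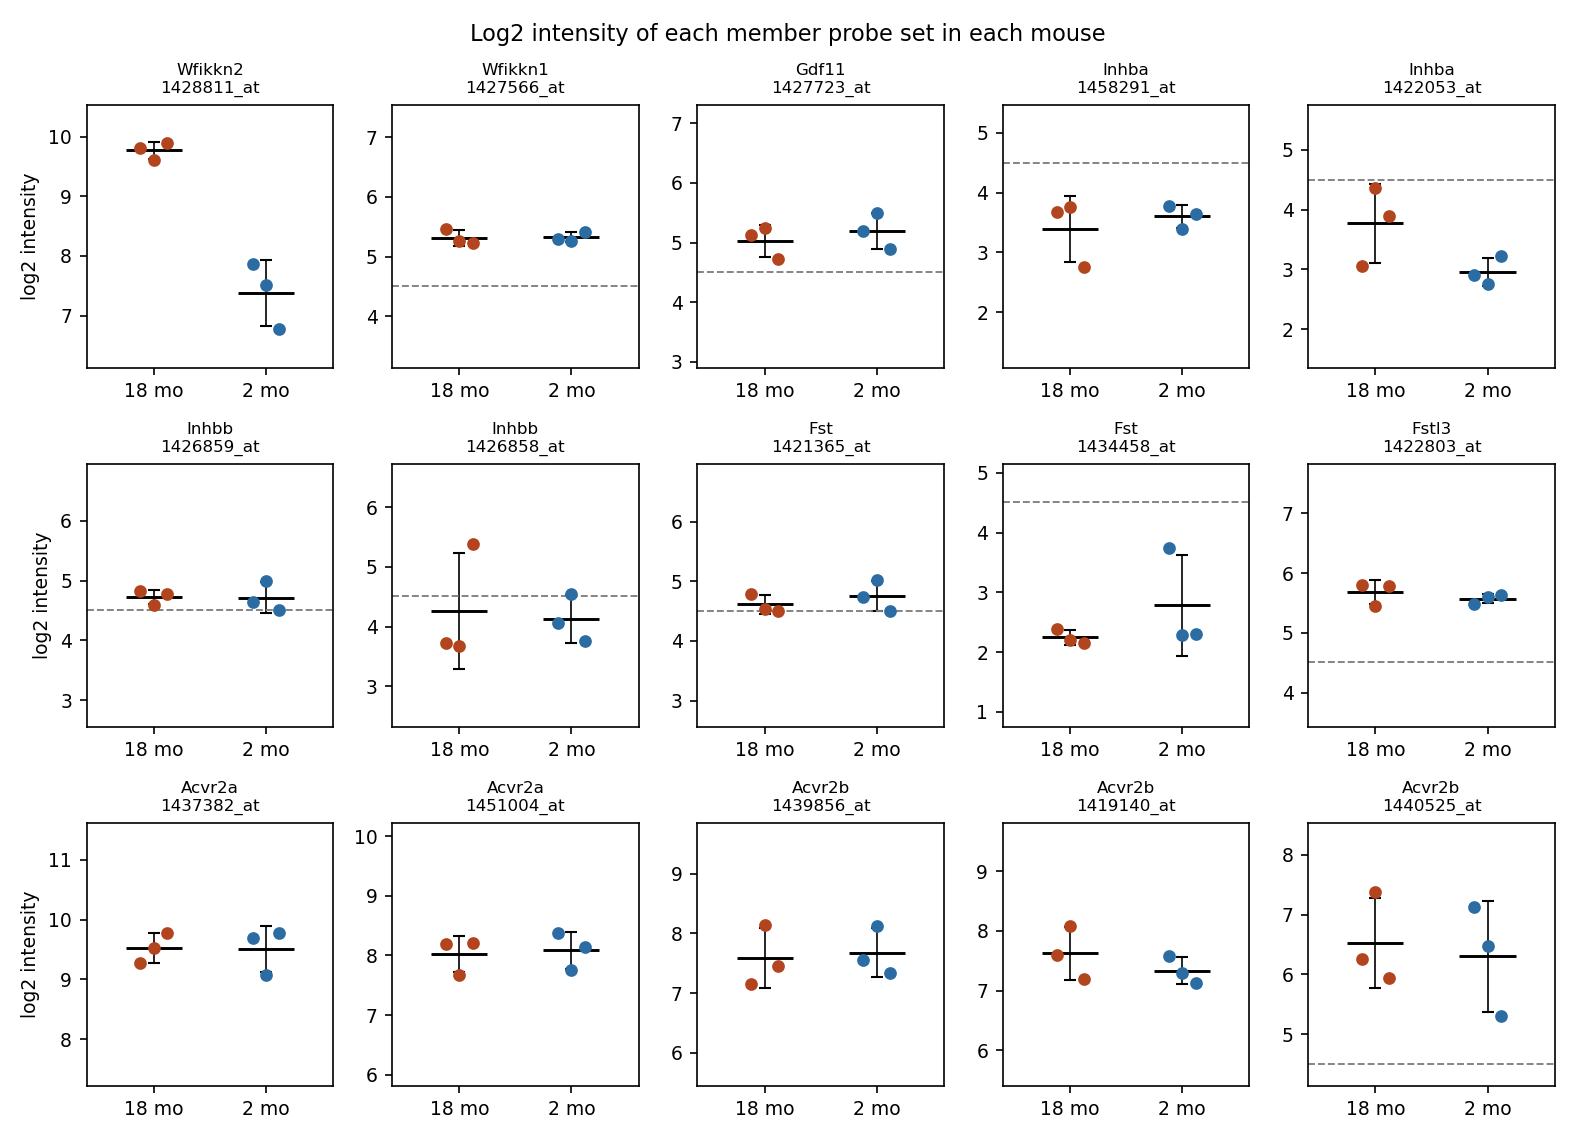
Log2 intensity of the 15 member probe sets in each mouse, with a panel for each probe set, 18 months on the left (red) and 2 months on the right (blue). Points are mice, bars are the mean and SD of 3 mice, every vertical axis spans the same log2 range, and the dashed line marks the highest bacterial control mean (4.51). For Wfikkn2 the 2 ages do not overlap, and in the other 14 panels they do.

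The promoter of Wfikkn2 is shown because this gene carried the age difference. The sequence is from RefSeq (GRCm38.p6, chr11:94242530-94242829, minus strand) and runs from 250 bases before to 50 bases after the annotated start. Capitals mark a Smad box.

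Wfikkn2 promoter: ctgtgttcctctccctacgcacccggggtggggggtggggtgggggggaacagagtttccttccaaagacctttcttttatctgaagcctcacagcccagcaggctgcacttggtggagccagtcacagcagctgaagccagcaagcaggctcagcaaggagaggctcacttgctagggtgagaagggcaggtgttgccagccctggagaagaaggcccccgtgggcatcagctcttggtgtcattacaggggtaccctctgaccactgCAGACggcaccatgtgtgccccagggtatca

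The box was searched as CAGAC and, for the other strand, GTCTG. The 1 match lay at bases 20 to 24 after the start, counted from 1 at the start site. Such a box stood in 49.6% of the 32851 promoters of this length, and in 6 of the 9 member promoters held by the table (those of Wfikkn2, Wfikkn1, Mstn, Fstl3, Acvr2a and Acvr2b). TATAAA, searched on both strands, was not in this window. It stood in 13.6% of all promoters and in those of Gdf11, Mstn, Inhba and Fstl3. A match is a description of the letters and not a binding site.

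The samples carried the markers of the labelled tissue. Of 13 choroid plexus epithelium markers 11 were tested, and their mean log2 intensity ranged from 12.48 to 12.57 at 18 months and from 12.45 to 12.59 at 2 months. In their differences 8 were below 0 and 3 above. Ranges were separate for Ttr (-0.17), Kcne2 (-0.31) and Calml4 (-0.11), all lower at 18 months, and for Aqp1 (0.64), which was higher. The steady mean thus holds differences of both signs. The transthyretin gene Ttr had 14.36, 14.30 and 14.25 in aged mice, against 14.48, 14.48 and 14.46 in young mice. The Klotho gene Kl had 12.54, 12.43 and 12.53 in aged mice, against 12.48, 12.53 and 12.31 in young mice. Set against the mean of the epithelium markers of its own array, Wfikkn2 differed by 2.39 between 18 and 2 months. The epithelium mean itself differed by only -0.009, so that this scaling could not move the value by more and says nothing on other cell types. In whole tissue, fewer cells of a type and less RNA per cell cannot be told apart.

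Markers of brain tissue were measured in samples of both ages and varied widely among mice of 1 age. The synaptic gene Snap25 had 10.43, 11.63 and 12.29 in aged mice, against 11.10, 10.23 and 12.30 in young mice. The myelin gene Mbp had 10.21, 11.14 and 11.79 in aged mice, against 11.23, 10.01 and 11.85 in young mice. The mean of 9 neuron markers ranged from 6.47 to 8.47 at 18 months and from 6.69 to 8.5 at 2 months, with replicate 3 the highest at both ages. With that mean as a covariate the Wfikkn2 difference was 2.37, but the mean differed by only -0.074 between ages and left little room for a change. Lists with separate ranges were not used as covariates. The mean of 7 oligodendrocyte markers ranged from 7.94 to 9.23 at 18 months and from 6.99 to 8.93 at 2 months, with 6 of 7 above 0 in their difference and summed intensities of 2692 to 7027 at 18 months and 1953 to 7413 at 2 months. That list's mean overlapped between ages, but the myelin gene Mog had separate ranges, with 6.96, 7.42 and 7.6 in aged mice, against 5.18, 5.33 and 6.21 in young mice. Ermn, another oligodendrocyte gene, had 6.70, 7.55 and 8.08 in aged mice, against 5.03, 3.46 and 7.05 in young mice. Mog and Ermn are named after their values were seen. Some further marker lists had separate ranges in the same arrays as Wfikkn2.

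Pituitary genes were the first of these. Of 9 pituitary markers, 8 had a probe set and 4 were bright enough to test, and their mean ranged from 7.24 to 8.04 at 18 months and from 5.84 to 6.41 at 2 months, with summed intensities of 858 to 1935 at 18 months and 286 to 410 at 2 months. Growth hormone (Gh) had 10.40, 10.18 and 9.08 in aged mice, against 4.65, 5.63 and 4.44 in young mice. Within the aged mice replicate 3 had the lowest Gh and the highest Wfikkn2. Over the 6 arrays the pituitary mean had r = 0.92 with Wfikkn2, the highest among the marker lists, both being higher at 18 months. The ependymal mean had an r of like size and opposite sign (-0.92), and the macrophage mean had r = 0.75. Pituitary signal and age cannot be told apart in these arrays. The hormone genes Prl, Pomc and Cga also had separate ranges, Prl and Cga below the filter, while Lhb, Fshb, Tshb and Ghrhr overlapped.

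The ependymal and macrophage lists followed. The mean of 7 ependymal markers ranged from 8.34 to 8.62 at 18 months and from 8.78 to 9.29 at 2 months, with all 7 below 0 in their difference and summed intensities of 4167 to 5369 at 18 months and 5761 to 10123 at 2 months. The separation of the list mean rested on Ak7, which was 12.39 in the 2-month replicate 2 and between 8.33 and 9.17 in the other mice. Without Ak7 the mean of the other 6 ranged from 8.29 to 8.67 at 18 months and from 8.66 to 9.34 at 2 months. The ages then overlapped narrowly, and the mean still differed by -0.47. Summed intensities of these 6 were 3846 to 4985 at 18 months and 4751 to 5312 at 2 months. Mlf1 (-0.82) and Foxj1 (-0.31) also had separate ranges, while Ccdc153 (-0.85) and Tmem212 (-0.70) overlapped. Dynlrb2 and Rsph1 had small differences of -0.018 and -0.11. The mean of 6 macrophage markers ranged from 7.48 to 8.28 at 18 months and from 7.23 to 7.44 at 2 months, with 5 of 6 above 0 and summed intensities of 2020 to 3173 at 18 months and 1724 to 2862 at 2 months. Of these 6, Aif1 alone had separate ranges (7.7, 7.12 and 8.13 in aged mice, against 6.9, 6.59 and 5.45 in young mice). Tyrobp went the other way at -0.46. The macrophage mean without Aif1 and the pituitary mean without Gh were not computed. The part of oligodendrocyte, pituitary, ependymal and macrophage RNA in the Wfikkn2 difference was not tested.

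**Figure D2:**
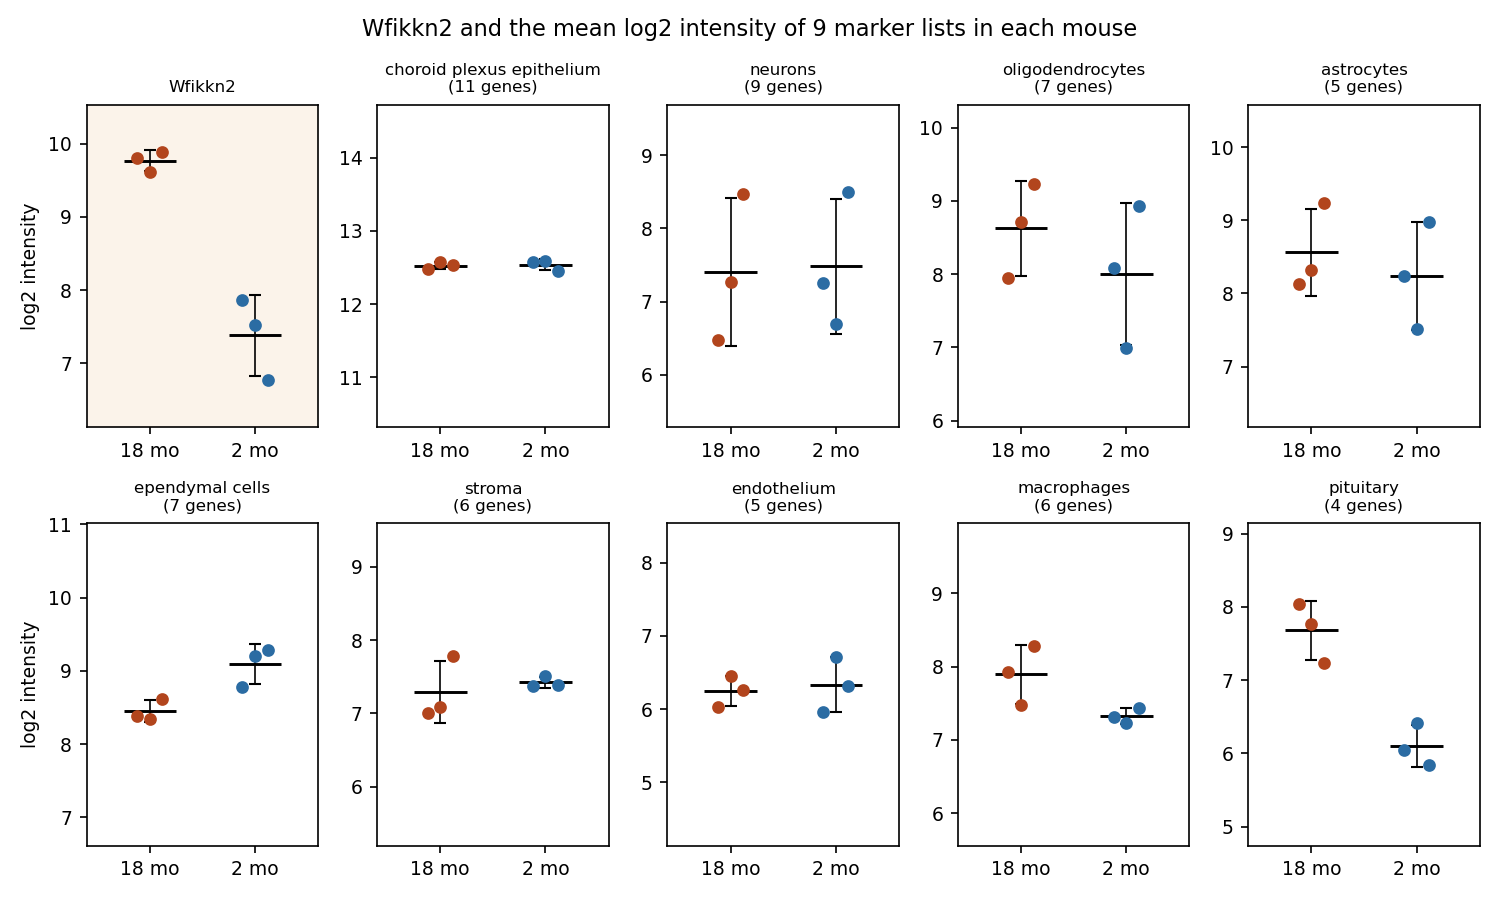
Log2 intensity of Wfikkn2 (shaded panel) and the mean log2 intensity of 9 lists of cell type markers in each mouse, 18 months on the left (red) and 2 months on the right (blue). Points are mice, bars are the mean and SD of 3 mice, the number of genes averaged is in each title, and every vertical axis spans the same log2 range. The epithelium list stays between 12.45 and 12.59 in all mice. The pituitary, ependymal and macrophage lists have separate ranges at the 2 ages, the ependymal list only with Ak7 included. The pituitary and macrophage lists were not averaged without the gene of largest difference in each, Gh and Aif1.

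Wfikkn1, the paralog whose product also binds myostatin and GDF11, had overlapping ages. It had log2 intensities of 5.46, 5.26 and 5.22 in aged mice, against 5.30, 5.26 and 5.42 in young mice. The mice lay within a narrow band. The difference was -0.016 (SE 0.16, 95% interval -0.40 to 0.37). As a ratio of 18 over 2 months the interval runs from 0.76 to 1.29, so that it does not hold a change of the size of Wfikkn2. The 6 arrays lay above the highest bacterial control by less than 1 on the log2 scale. RMA values of dim probe sets tend to be compressed, and a change in a transcript this dim may be understated.

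Among the ligands, Gdf11, which patterns the axial skeleton in the embryo and circulates in the adult, was measured just above the filter. It had 5.12, 5.24 and 4.72 in aged mice, against 5.19, 5.49 and 4.89 in young mice. The lowest mouse at each age was replicate 3, the one with the most neuron signal. The difference was -0.17 (SE 0.23, 95% interval -0.73 to 0.39). It was 0.14 without the 18-month replicate 3 and the 2-month replicate 2, the arrays at the ends of principal component 1, so that even its sign was not fixed.

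Inhba, which encodes the beta A subunit of activin A and of inhibin A, could not be measured above background. Its probe set 1458291_at had 3.67, 3.76 and 2.76 in aged mice, against 3.78, 3.40 and 3.64 in young mice. The second, 1422053_at, had 3.06, 4.36 and 3.90 in aged mice, against 2.90, 2.75 and 3.22 in young mice. Both lay under the highest bacterial control in all 6 mice and the signs of their differences were opposite (-0.21 and 0.82), so that no fold is given.

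Inhbb, which encodes the beta B subunit, was at the edge of background. Its probe set 1426859_at had 4.82, 4.60 and 4.77 in aged mice, against 4.64, 5.0 and 4.51 in young mice. These values overlapped, with a difference of 0.015. The other, 1426858_at, had 3.72, 3.67 and 5.38 in aged mice, against 4.06, 4.55 and 3.76 in young mice, where 1 aged mouse stood apart, and only 2 of 6 arrays exceeded the highest bacterial control.

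For the binder genes the ages overlapped on every probe set. Fst encodes follistatin, which captures activins and myostatin. Its probe set 1421365_at had 4.79, 4.54 and 4.51 in aged mice, against 4.73, 5.02 and 4.51 in young mice, below the filter. The second, 1434458_at, had 2.38, 2.20 and 2.15 in aged mice, against 3.75, 2.28 and 2.31 in young mice. The young replicate 1 alone was higher on the second probe set, and all 6 values there lay under the highest bacterial control.

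Fstl3, which encodes a follistatin relative without a heparin-binding segment, was tested. It had 5.81, 5.45 and 5.78 in aged mice, against 5.49, 5.6 and 5.63 in young mice. The ages overlapped, and the difference was 0.11 (SE 0.17, 95% interval -0.31 to 0.53).

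The type II receptor genes were well above background at both ages. Acvr2a, which encodes the activin receptor type IIA, had 9.28, 9.53 and 9.77 in aged mice, against 9.70, 9.07 and 9.77 in young mice on probe set 1437382_at. Its second probe set, 1451004_at, had 8.19, 7.67 and 8.21 in aged mice, against 8.37, 7.76 and 8.14 in young mice. On the first probe set the lowest mice were the 18-month replicate 1 and the 2-month replicate 2, which also had the lowest neuron marker mean of their age (6.47 and 6.69). On the second the lowest aged mouse was replicate 2, whose neuron marker mean was not the lowest. Over the 6 arrays r with the neuron marker mean was 0.84 on the first probe set and 0.28 on the second. The part of neuron RNA in these values was not tested. The differences were 0.015 (SE 0.25, 95% interval -0.59 to 0.62) and, on the second probe set, -0.065.

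Acvr2b encodes the activin receptor type IIB, through which myostatin and GDF11 also signal. Its probe set 1439856_at had 7.16, 8.14 and 7.45 in aged mice, against 7.56, 8.13 and 7.34 in young mice. Probe set 1419140_at had 7.59, 8.09 and 7.19 in aged mice, against 7.58, 7.30 and 7.13 in young mice. Probe set 1440525_at had 6.26, 7.37 and 5.93 in aged mice, against 7.13, 6.48 and 5.30 in young mice.

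In all 3 Acvr2b probe sets the aged replicate 2 was the highest of its age, and the young replicate 3 was the lowest of its age. The differences were -0.10 (SE 0.33, 95% interval -0.87 to 0.68), 0.29 and 0.21, with overlapping ages throughout. The interval of the first, which stood for the gene, runs from 0.55 to 1.61 as a ratio of 18 over 2 months, so that it still holds changes in either direction.

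**Figure D3:**
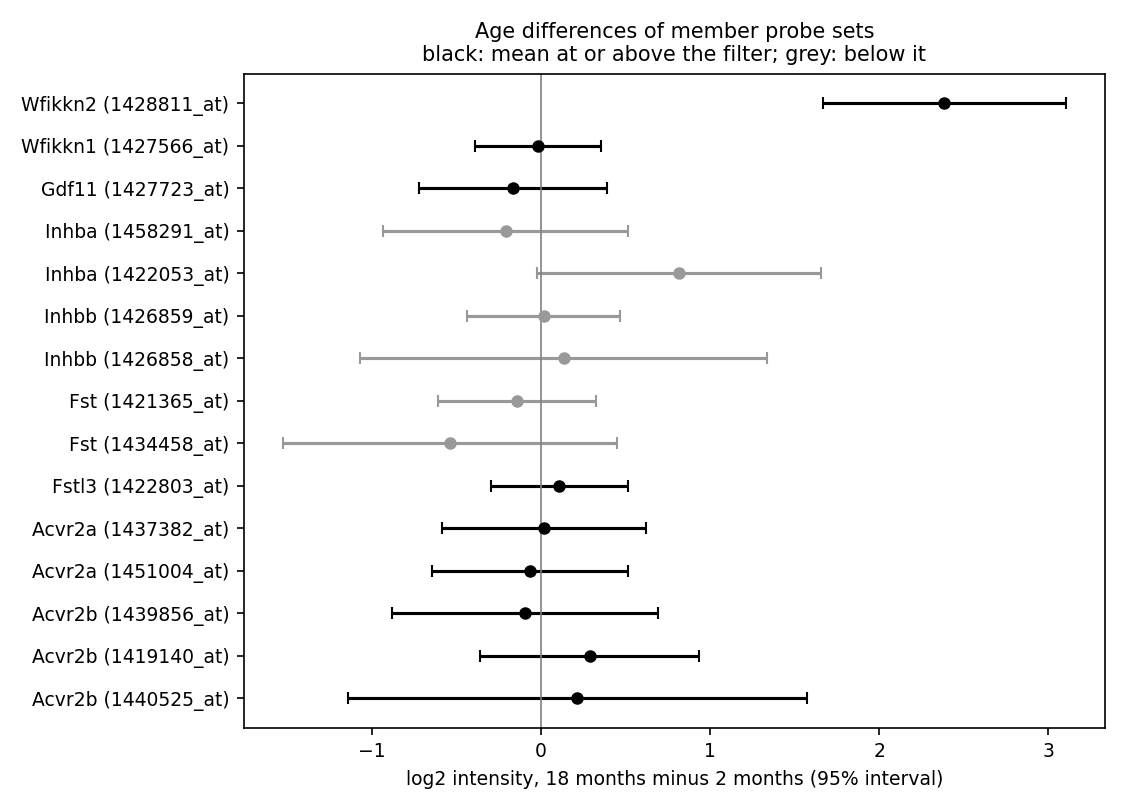
Difference in log2 intensity, 18 months minus 2 months, of each member probe set, with the 95% interval from a limma fit of all probe sets other than controls. Black marks a probe set whose mean reached the filter and grey one below it. Wfikkn2 lies at 2.38, and the intervals of the other 14 probe sets include 0.

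Across the tested members, the differences of the 5 genes other than Wfikkn2 lay between -0.17 and 0.11, with intervals reaching from -0.87 to 0.68. By limma 0 of the 6 tested members had an adjusted p under 0.05, and 0% of all 12681 genes tested had one. At an unadjusted p under 0.05 there was 1 of 6, Wfikkn2, which was higher, against 7.05% of all genes (4.02% higher and 3.03% lower). The ages had separate ranges in 1 of 6, again Wfikkn2, against 13.3% of all genes (7.06% higher and 6.25% lower). Because Wfikkn2 was chosen with its difference known, nothing is read from these counts. The median difference of the 6 was 0.00, as was that of all genes tested.

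Other genes of the pathway were taken from a list by role. Of 68 genes 65 had a probe set of their own and 49 were tested. By limma 0 were higher and 0 lower at an adjusted p under 0.05, and at an unadjusted p under 0.05 there were 2 higher and 4 lower, 12.2% against 7.05% of all genes. Separate ranges were found in 1 that was higher and 5 that were lower, 12.2% of the 49 against 13.3% of all genes. The median difference was 0.036, with 27 above and 22 below 0.

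Among ligands 4 of 14 were bright enough to test and 0 passed in either direction (median difference -0.067). Inha, the inhibin alpha subunit gene, had a difference of -0.26 (SE 0.33) and Tgfb3 one of 0.29 (SE 0.37). Tgfb2 had 11.80, 11.86 and 11.94 in aged mice, against 11.84, 12.18 and 11.94 in young mice, a difference of -0.12 (SE 0.17), with 0.071 on 1423250_a_at among its 3 other probe sets. The ages overlapped for this ligand gene, which was far above background in every mouse. Nodal, the embryonic patterning ligand gene, had a difference of -0.011 (SE 0.17).

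Of type I receptors, other type II receptors and co-receptors 8 of 11 were tested, and 0 passed in either direction (median difference 0.058). Acvr1b, the type I receptor gene for activins, GDF11 and myostatin, had 9.06, 10.35 and 9.49 in aged mice, against 9.09, 8.42 and 8.76 in young mice. The lowest aged mouse lay just under the highest young one. The difference was 0.87 (SE 0.36, limma adjusted p = 0.708), and 0.52 without the 18-month replicate 2. Its second probe set, 1422098_at, gave 0.033. Tgfbr3, the co-receptor gene betaglycan that helps inhibin bind, had a difference of 0.21 (SE 0.18), the endoglin gene Eng one of 0.26 (SE 0.24) and Igsf1 one of -0.23 (SE 0.30).

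Of genes for processing and latency 11 of 13 were tested, with 0 past the adjusted threshold (median difference -0.14). They held both the lowest difference of the wider list, that of Tll1, and the second highest, 0.89 (SE 0.64) for the convertase gene Pcsk5, whose ages overlapped. The other probe sets of Pcsk5, all below the filter, gave 0.41, -0.064, -0.41 and 1.39. Tll1 encodes a protease of the tolloid family, whose members free myostatin and GDF11 from their propeptides. It had 4.93, 5.35 and 2.84 in aged mice, against 6.42, 5.93 and 6.39 in young mice. The ages were separate, but the aged replicate 3 lay under the highest bacterial control. The difference was -1.87 (SE 0.63, limma adjusted p = 0.672), and -1.11 without that mouse.

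Dcn, which encodes the matrix proteoglycan decorin that binds TGF-beta and myostatin, had 7.91, 7.89 and 8.59 in aged mice, against 8.72, 9.10 and 8.74 in young mice. These ranges were separate by a narrow gap, with a difference of -0.72 (SE 0.25, limma adjusted p = 0.672). Dcn is also a stromal marker, and the 6 stromal markers had means of 7.01 to 7.78 at 18 months and 7.37 to 7.51 at 2 months. Of these 6, 5 were below 0 in their difference (Col1a1 -0.30, Col1a2 -0.48 with separate ranges, Col3a1 -0.73, Dcn itself and Lum -0.52) and Pdgfra was above it at 1.95. Without Pdgfra the means were 6.48 to 7.43 at 18 months and 7.27 to 7.49 at 2 months. The part of stromal RNA in the Dcn difference was not tested. The convertase gene Pcsk6 had a difference of -0.40 (SE 0.21), with separate ranges, and Bmp1, the founding tolloid protease gene, one of -0.29 (SE 0.20) on the probe set that stood for it and 0.53 on its second, 1426238_at.

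All 13 Smads and regulators were tested and 0 passed (median difference 0.061). Smurf2, a ubiquitin ligase gene that targets Smads and their receptors, had 9.36, 8.99 and 8.81 in aged mice, against 9.82, 9.38 and 9.54 in young mice. The ages were separate only narrowly, at 9.36 against 9.38 for the nearest mice. The difference was -0.53 (SE 0.22, limma adjusted p = 0.708), but its second probe set, 1429045_at, gave 0.34. Ppm1a, a gene for a phosphatase that acts on Smad2 and Smad3, differed by 0.42 (SE 0.18) on the probe set that stood for it. Its other probe sets above the filter gave 0.098 to 0.52, and 1443903_at, below the filter, gave -0.94. With all its probe sets averaged Ppm1a differed by 0.11. Smad7, the inhibitory Smad that the pathway itself induces, gave -0.25 (SE 0.18) on the probe set that stood for it and 0.37 on the other, and Pmepa1 gave -0.26 (SE 0.20), against 0.092 and 0.18 on its other probe sets.

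Other secreted binders held the highest difference of the list, 0 past the adjusted threshold. Spock1, which encodes the proteoglycan testican-1 of the SPARC family, had 8.75, 7.36 and 8.55 in aged mice, against 6.57, 5.85 and 7.37 in young mice. One aged mouse lay just under the highest young one. The difference was 1.62 (SE 0.50, limma adjusted p = 0.634), against 0.24 on its second probe set, 1419673_at.

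Dand5, which encodes a Nodal antagonist of the Cerberus family, had 6.96, 6.98 and 7.08 in aged mice, against 7.22, 8.28 and 8.14 in young mice. Its ranges were separate, with the young replicate 1 near the aged mice and a difference of -0.87 (SE 0.30, limma adjusted p = 0.672). Sparc differed by -0.12 (SE 0.18). Fstl1 differed by 0.27 (SE 0.70) and turned to -0.60 without the 2-month replicate 2.

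Genes that respond to Smad2 and Smad3 were tested in 9 of 10 cases (median difference 0.036). By limma 0 were past either threshold, against 7.05% of all genes at an unadjusted p under 0.05. Separate ranges were found in 0, against 13.3% of all genes. With 9 genes these counts lie near those shares, and nothing is read from them. The early response gene Klf10 differed by 0.35 (SE 0.25), the connective tissue growth factor gene Ccn2 by -0.44 (SE 0.65) and Col1a1 by -0.30 (SE 0.41). Cdkn2b, a cell cycle inhibitor gene, had 6.49, 4.8 and 5.95 in aged mice, against 6.26, 5.17 and 9.74 in young mice. Its difference of -1.31 (SE 1.15) came from 1 young mouse, and it was 0.036 without the 2-month replicate 3.

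**Figure D4:**
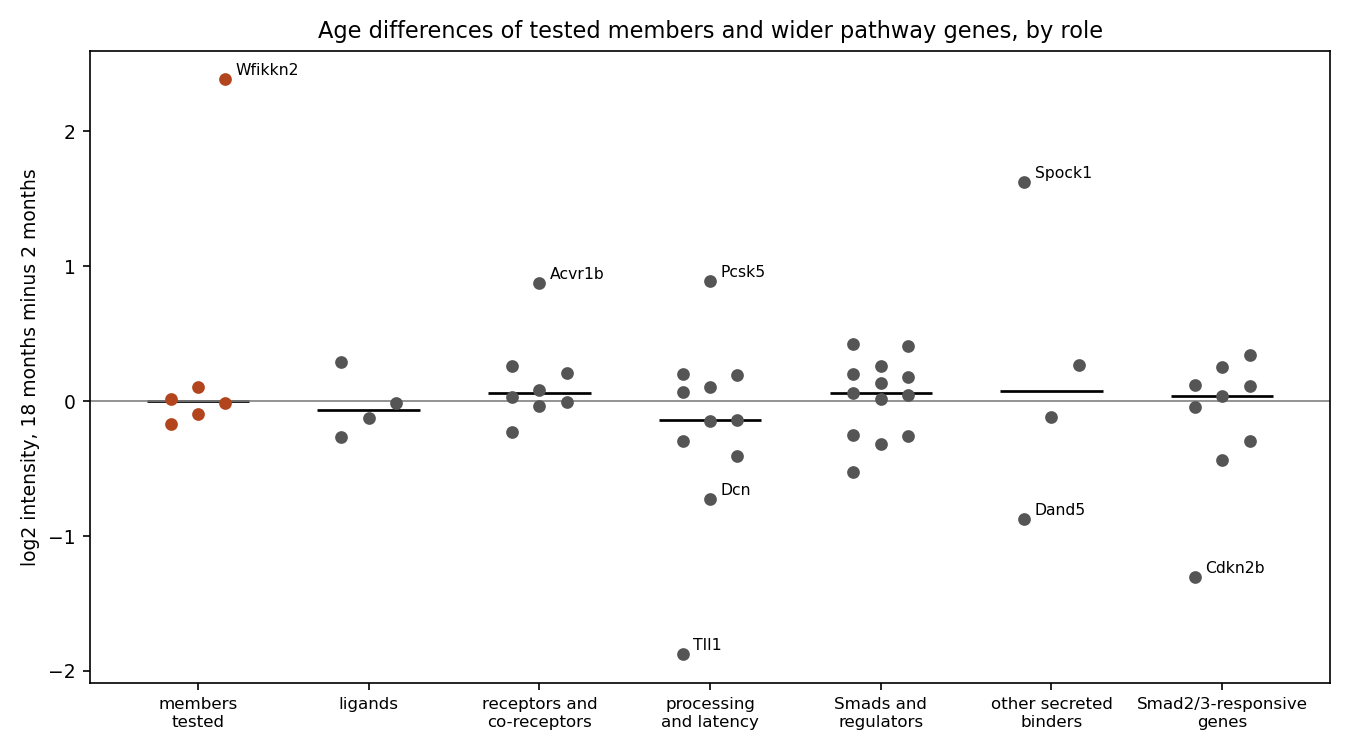
Difference in log2 intensity, 18 months minus 2 months, of the 6 tested members (red) and of 49 tested genes of the wider pathway (grey) by role. Each point is a gene, horizontal bars are medians, and genes beyond 0.7 in either direction are named. Wfikkn2 is at 2.38 and Spock1 at 1.62, and the medians of the roles lie between -0.14 and 0.077.

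The genes whose pattern over the 6 arrays was most like that of Wfikkn2 were looked up by Pearson correlation of log2 values among 12065 named genes. These values are the extremes of many genes over 6 arrays and were not tested. The highest were Thnsl2, a threonine synthase-like gene (r = 0.996), Pdgfra, a growth factor receptor gene of fibroblasts and glial precursors (r = 0.996), Mier2 (r = 0.992), Serpina1c of the alpha-1-antitrypsin family (r = 0.992) and Ckap2l, a spindle gene (r = 0.988).

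Pdgfra had 9.64, 9.34 and 9.56 in aged mice, against 7.88, 7.61 and 7.21 in young mice. Serpina1c had 8.63, 8.30 and 9.15 in aged mice, against 6.25, 6.03 and 5.33 in young mice. In all 5 genes the order of the young mice was that of Wfikkn2. They were picked by correlation over these same arrays, so that nothing is read from the shared order. The differences of Pdgfra (1.95, SE 0.22) and Serpina1c (2.82, SE 0.32) were of the size of that of Wfikkn2. Those of Thnsl2 (0.44), Mier2 (0.43) and Ckap2l (0.22) were much smaller. The other probe sets of Pdgfra gave 1.29 and 0.035, those of Mier2 -0.053 and 0.020 and that of Ckap2l 0.11, and Serpina1c has close paralogs that its probes may read.

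The most opposite patterns were those of Mtm1, the myotubularin phosphatase gene (r = -0.990, difference -1.32), the riboflavin transporter gene Slc52a3 (r = -0.985, -0.62), the cap-binding gene Ncbp2 (r = -0.982, -0.66), the actin gene Actb (r = -0.978, -0.16) and the lysophosphatidic acid receptor gene Lpar4 (r = -0.977, -1.98). These are values of 1 probe set for each gene. Other probe sets above the filter gave -0.013 and -0.47 for Mtm1, 0.32 and -0.54 for Ncbp2 and 0.051 for Actb, so that the signs were not shared by all probe sets of Ncbp2 and Actb. With the mean of each age subtracted, the highest were Nceh1 (r = 0.999), Frmd4b (r = 0.997), Madd (r = 0.994), Slc9a5 (r = 0.989) and Ccdc51 (r = 0.988). Nceh1 itself had 7.80, 7.58 and 7.89 in aged mice, against 8.27, 7.96 and 7.16 in young mice, with overlap between ages.

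**Figure D5:**
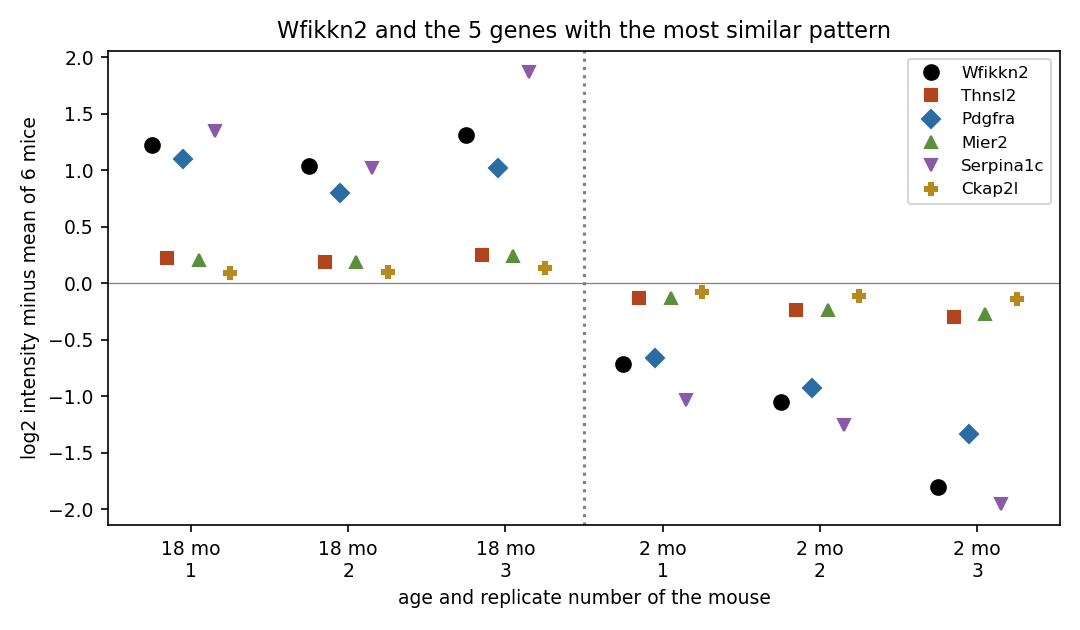
Log2 intensity of Wfikkn2 and of the 5 genes with the highest correlation to it, minus the mean of the 6 mice, by age and replicate number. Each symbol is a gene in 1 mouse, and mice of 1 age have no order. In all 6 genes the 18-month mice lie above 0 and the 2-month mice below it, by much less in Thnsl2, Mier2 and Ckap2l than in Wfikkn2, Pdgfra and Serpina1c.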

How the data were processed

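Total RNA of whole lateral ventricle choroid plexus from 6 mice was amplified with a Nugen Pico kit and hybridized to Affymetrix arrays, per the labels' protocols. The authors deposited 1 table of normalized intensity values for 45101 probe sets, made with RMA per the submitters' processing notes; its version is not given in the sources used here. The values ran from 2.47 to 26820.7 and were taken as linear, and their log2 was used. RMA and amplification of small inputs can both compress or distort the values of dim transcripts. Array medians lay between 5.56 and 5.65.

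The platform annotation gave the gene names: of 45037 that are not controls, 34945 had 1 symbol, 932 several and 9160 none. The brightest probe set by mean was taken for each gene (18193 in all), and 12681 genes passed the 40th percentile. Ages were compared with limma 3.58.1 in R 4.3.3 (lmFit, eBayes, 18 minus 2 months, two-sided, 6.61 degrees of freedom) with Benjamini-Hochberg adjustment over all genes tested. SE and 95% intervals come from that fit. Values of second probe sets come from the same fit of all probe sets. The limma step was tested on simulated data. The number of arrays limits the precision.

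The members and lists were chosen with earlier results of these data known. Named were all members, up to 4 genes of each role with the smallest p, the 5 genes of highest and of lowest correlation with Wfikkn2, the 5 of highest correlation within ages, and Ttr, Kl, Snap25, Mbp and Gh as markers. Pcsk5 was named besides for the size of its difference, and further marker genes, such as Mog, Ak7 and Aif1, after their values were seen. Clone and model numbers were not considered for the correlations. Alternatives covered the filter, the probe set rule, the scaling, the log scale, covariates, weights, the replicate number and leaving out mice.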

Additional observations from a re-analysis of the deposited data

How the results depend on the processing

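The Wfikkn2 difference kept its sign under all 18 alternatives, between 2.08 and 2.62, and its limma adjusted p lay between 0.101 and 0.609 in this and the alternative fits, above 0.05 in each. Wfikkn2 was chosen for this difference in the same arrays. Its sign and its p values in these fits are thus descriptions, and nothing is read from them. The count of wider pathway genes past the threshold was 0 in both directions under every alternative fit. Over all genes, 0 higher and 0 lower became 3 and 1 with a 60th percentile filter, 3 and 1 with array weights, 4 and 1 with arrays centred on their median, 5 and 0 with probe sets averaged, 1 and 0 with the neuron covariate, and 0 and 1 with each probe set fitted alone. Leaving out a mouse gave 0 and 0 each time. With the replicate number as a replicate block the counts were 0 and 0 and the Wfikkn2 difference 2.38 (limma adjusted p = 0.529). Same-numbered mice had weak correlations of deviations, -0.015, 0.019 and 0.168, too few to settle whether the numbers pair the mice. Replicate 3 had the highest neuron marker mean at both ages. Of the 594 other single-gene differences under an alternative, 0 passed the threshold. Some of them had no adjusted p and could not pass. These were genes below the filter, and the members under the epithelium scaling and the altered log scale. The 8 other measured members changed sign in 22 of 138, namely Acvr2a and Acvr2b 5 times each, Inhbb 4, Wfikkn1 and Inhba 3, and Gdf11 and Fst 1, while Fstl3 had 0. Besides the members 29 genes were followed, those of smallest p in each role and the 5 of highest correlation with Wfikkn2. These changed sign in 16 of 456, all in genes of the wider list. Averaging the probe sets of a gene turned Nodal (0.032), Bmp1 (0.14), Smad7 (0.059) and Pmepa1 (0.0051). Leaving out 1 mouse gave ranges through 0 for the members Acvr2b (-0.37 to 0.13), Acvr2a (-0.21 to 0.14), Wfikkn1 (-0.089 to 0.031), Inhba (-0.39 to 0.11) and Inhbb (-0.089 to 0.16), and in the wider list for Nodal (-0.11 to 0.075, above 0 without 18-month replicate 2 or 3 or 2-month replicate 2), Igsf1 (-0.42 to 0.039, the highest without 18-month replicate 3), Inha (-0.62 to 0.0054) and Fstl1 (-0.60 to 0.74), both turned without 2-month replicate 2, and Cdkn2b (-2.25 to 0.036, the highest without 2-month replicate 3). With the arrays at both ends of component 1 left out, which was chosen after seeing the data, Inha gave 0.043, Nodal 0.10, Igsf1 0.21, Sparc 0.012 and Fstl1 -0.75, and the members Gdf11 and Acvr2a gave 0.14 and -0.33. Inhba gave 0.30 when its probe sets were averaged. The cause was not tested. Signal near background limits Inhba, Inhbb, Fst and, to a lesser degree, Gdf11 and Wfikkn1.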
